A study of Mus musculus with 25 samples.

Results

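The genes described here are 8 mouse genes that lengthen, desaturate and carry fatty acids: the elongases Elovl2, Elovl4, Elovl5 and Elovl6, the desaturases Fads1 and Fads2, and the fatty acid binding proteins Fabp5 and Fabp7. They were chosen by name, from measured values of the same tables, which are their RNA levels by age and sort and their ATAC-seq counts. What they show in RNA between sorts and ages is therefore a description. All 8 members were present among 28446 genes in the RNA table and among 23284 genes in the ATAC-seq exon table, and all 8 passed the filter on low RNA values, as 14276 genes did. Retinal cells of CD1 mice had been separated by green fluorescent protein (GFP) into a GFP+ fraction, labelled retinal progenitor cells, and a GFP- fraction, labelled post-mitotic retinal cells, and the labels do not name the reporter or its promoter. The 12 RNA libraries cover 3 ages, embryonic days 14 and 18 (E14 and E18) and day 2 after birth (P2), with 2 libraries per sort and age. ATAC-seq, in which a transposase inserts adapters into accessible chromatin, was done on the GFP+ fraction alone. Its 13 libraries are 1 from E10 (labelled embryonic day 10/11) and a pair from each of 6 stages, E12.5, E14 and E16.5 before E18, then P0, the day of birth, and P2.

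Elongases catalyse the condensing step that adds a carbon pair to a fatty acyl-CoA in the endoplasmic reticulum, and each prefers a range of chain lengths. Desaturases insert double bonds, and the alternation of both kinds of enzyme makes docosahexaenoic acid (DHA) and arachidonic acid from dietary precursors. Photoreceptor outer segments are rich in DHA and hold very long chain polyunsaturated acids. Elovl5 acts on shorter polyunsaturated acids, Elovl2 on the longer precursors of DHA, Elovl4 on very long chains, and Elovl6 on saturated and monounsaturated acids. Fads2 carries out the delta-6 step and Fads1 the delta-5 step. Fabp5 and Fabp7 are small cytosolic proteins that carry fatty acids, and Fabp7 is a familiar marker of radial glia in the brain.

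Values in the RNA table are FPKM (fragments scaled to transcript length and library size), a level per transcript length, and their read depth is unknown. Nothing in the labels says whether the libraries of a group came from separate litters, so the spread between them may be technical. The summed level of 10 progenitor markers was 1830 to 3500 FPKM in the GFP+ libraries, and that of 8 neuronal markers at E18 and P2 was 670 to 1470 FPKM in GFP- libraries against 125 to 186 in GFP+ libraries. GFP- libraries at E18 and P2 still held 878 to 1330 FPKM of the progenitor markers. Of these 10 markers, 9 were higher in GFP+ than in GFP- cells at E18 and 1 was lower, with the same counts at P2. In the fit between sorts described below, 0 of them were called higher at E18 or P2, and 1 was called lower at E18. At E14 the GFP- replicates were unlike each other: neuronal markers summed to 5750 FPKM in replicate 1 and 95.4 in replicate 2, while 10 lens markers summed to 4750 FPKM in replicate 2 and 0.932 in replicate 1. In the library labelled GFP- replicate 2, 8 pigment epithelium markers also summed to 195 FPKM and 7 mesenchyme markers to 174, against 7.57 and 2.03 in replicate 1, and 10 progenitor markers to 2200 against 485. Erythroid markers were high in both, at 241 FPKM in replicate 2 and 1250 in replicate 1. Whether replicate 2 matches its label could not be settled, so every GFP- value of E14 carries that doubt. Lens markers also summed to 128 FPKM in GFP+ replicate 2 at E14, and to at most 4.51 FPKM at E18 and P2. Each RNA result below rests on a spread shared by all 12 libraries, so values are also given without both GFP- libraries of E14, an alternative chosen after seeing the data. That alternative keeps the GFP+ libraries of E14, in which Fabp7 measured 23.6 and 0.822 FPKM. This gap enters the standard error of Fabp7 at every age.

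Elovl2 and Elovl4 were highest in GFP- cells at P2. Elovl2 stood at 14.7 and 17.7 FPKM in GFP+ cells at E14, 9.19 and 8.99 at E18 and 17.1 and 11.9 at P2. In GFP- cells the Elovl2 level was 26.4 and 13.1 FPKM at E14, 36.6 and 34.6 at E18 and 54.4 and 87.2 at P2. The 2 groups at the top, GFP- cells at P2 and at E18, and the lowest, GFP+ cells at E18, overlapped no neighbour in the order of levels, while the other three groups overlapped each other. Elovl4 measured 21.1 and 21.3 FPKM in GFP+ cells at E14, 24.5 and 23.7 at E18 and 36.3 and 27.1 at P2. Its levels in GFP- cells were 48.8 and 18.8 FPKM at E14, 52.2 and 49.4 at E18 and 72.3 and 125 at P2. The low Elovl4 value of 18.8 FPKM, in the GFP- library of E14 that held lens RNA, lay below every GFP+ library, so the sorts overlapped at E14 and at neither later age. In sorted bulk cells, fewer cells of a type and less RNA per cell cannot be told apart.

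Elovl5 ran the other way. It measured 56.1 and 45.3 FPKM in GFP+ cells at E14, 69.9 and 72.7 at E18 and 57.2 and 61.5 at P2. In GFP- cells Elovl5 measured 35.0 FPKM in both libraries at E14, 37.3 and 36.6 at E18 and 30.1 and 24.3 at P2. The 6 groups stood in the order GFP+ at E18, P2 and E14, then GFP- at E18, E14 and P2, and no neighbours in that order overlapped, although GFP+ cells at P2 and E14 were only 1 step apart (57.2 against 56.1 FPKM). Elovl6 was lower at P2 than at both earlier ages in either sort, at 15.0 and 18.0 FPKM in GFP+ cells at E14, 16.2 and 13.9 at E18 and 5.61 and 9.41 at P2. Its GFP- levels were 29.9 and 20.4 FPKM at E14, 22.7 and 22.2 at E18 and 12.1 and 8.97 at P2. For Elovl6 the sorts overlapped at P2 and GFP- cells were higher at E14 and E18.

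The desaturases varied least of the 8 genes. The highest library of Fads1 was 2.17 times its lowest, and that of Fads2 1.9 times, against 9.7 times for Elovl2. Fads1 measured 62.9 and 64.8 FPKM in GFP+ cells at E14, 66.9 and 67.2 at E18 and 52.7 and 68.3 at P2. In GFP- cells Fads1 measured 101 and 65.3 FPKM at E14, 59.6 and 63.3 at E18 and 57.5 and 46.7 at P2. Its GFP- libraries were the higher at E14 and the lower at E18, and the sorts overlapped at P2. Fads2, the initial desaturase of the pathway, measured 111 and 91.7 FPKM in GFP+ cells at E14, 119 and 139 at E18 and 99.9 and 130 at P2. Its GFP- levels were 145 and 93.9 FPKM at E14, 83.7 and 92.4 at E18 and 90.3 and 76.6 at P2. Fads2 was higher in GFP+ cells at E18 and P2 with no overlap, and the sorts overlapped at E14. The ratio of Fads1 to Fads2 stayed between 0.482 and 0.712 in all 12 libraries.

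Fabp7 had the widest range, from 0.822 FPKM to 449 FPKM, or 546 times. In GFP+ cells it measured 23.6 and 0.822 FPKM at E14, 65.2 and 63.2 at E18 and 436 and 214 at P2. In GFP- cells it measured 8.0 and 0.936 FPKM at E14, 86.0 and 78.4 at E18 and 252 and 449 at P2. Every P2 library was above every E18 library, and every E18 library above every E14 library, in both sorts, and the sorts overlapped at E14 and at P2. Both E14 values under 1 FPKM came from the replicates 2, the libraries with lens RNA, and the part of that RNA in them was not tested. Fabp5 measured 94.4 and 139 FPKM in GFP+ cells at E14, 64.5 and 71.5 at E18 and 69.8 and 65.5 at P2. Its GFP- levels were 254 and 82.4 FPKM at E14, 115 and 116 at E18 and 96.5 and 101 at P2, higher than in GFP+ cells at both later ages. The Fabp7 level per Fabp5 level was 0.00591 to 0.25 at E14, 0.674 to 1.01 at E18 and 2.61 to 6.24 at P2, with no overlap between ages.

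**Figure D1:**
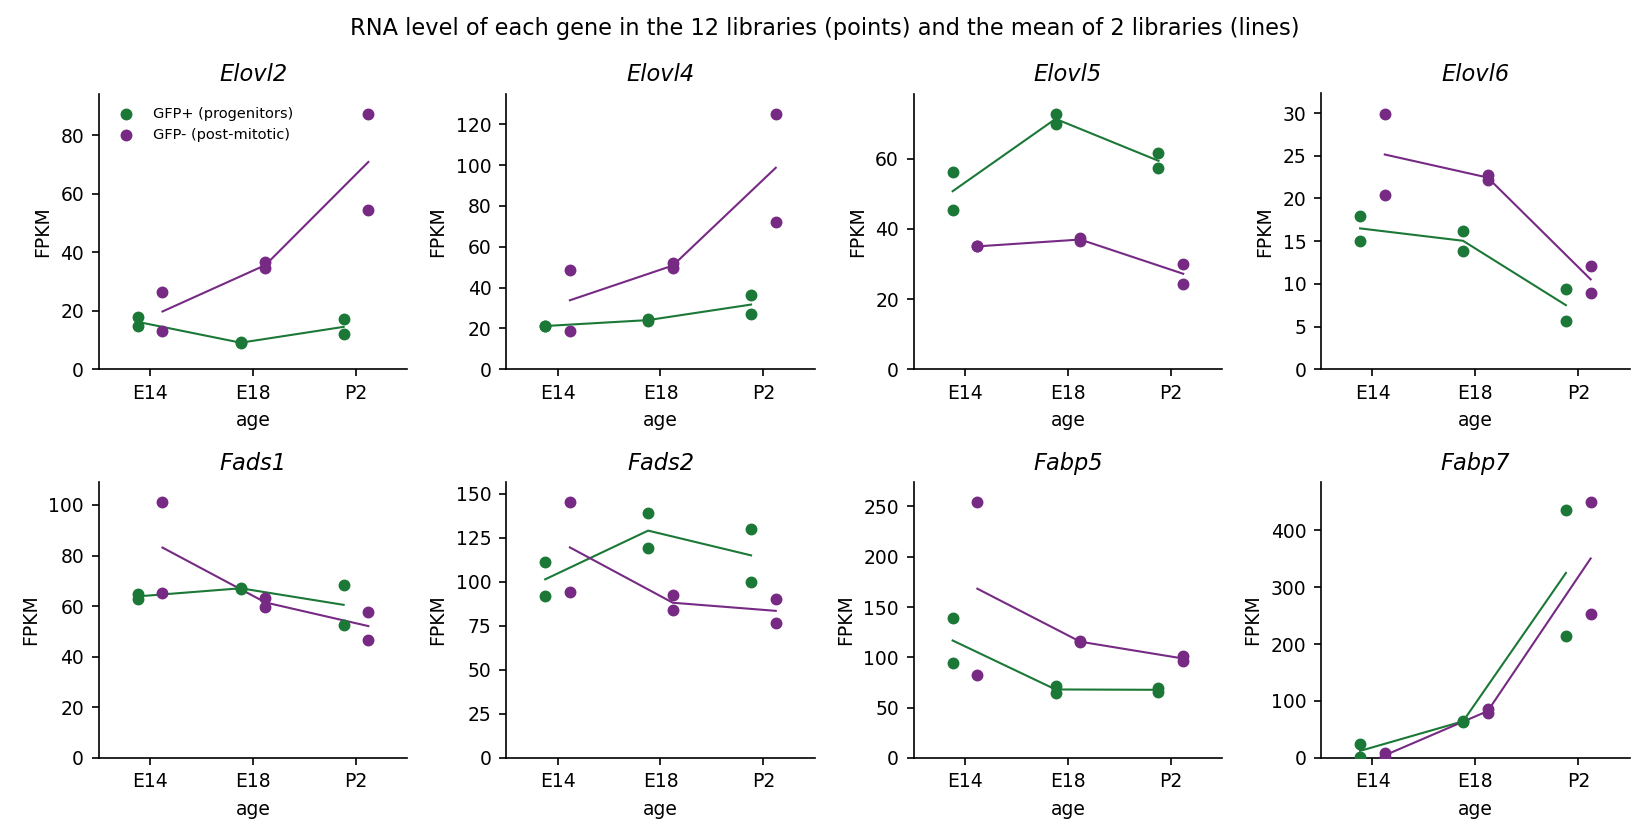
RNA level of each of the 8 genes in FPKM by age and sort, 1 point per library and 2 libraries per group, with the group means. Fabp7 spans 0.822 to 449 FPKM, and Fads1 and Fads2 stay within 46.7 to 145 FPKM.

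Ordered within each group by length-scaled level, the leading gene changed with age. Fabp5 led at E14, at 117 ± 31.6 FPKM (SD, n = 2) in GFP+ cells and 168 ± 121 in GFP- cells, followed by Fads2 at 101 ± 13.3 and 120 ± 36.5, and the libraries of these neighbours overlapped. At E18 Fads2 led in GFP+ cells at 129 ± 14.5 FPKM, ahead of Elovl5 at 71.3 ± 1.97, and Fabp5 led in GFP- cells at 116 ± 0.736 ahead of Fads2 at 88.0 ± 6.17. At P2 Fabp7 led in both sorts, at 325 ± 157 FPKM (GFP+) and 350 ± 139 FPKM (GFP-). Fabp7 also had the lowest mean of the 8 at E14, at 12.2 ± 16.1 FPKM in GFP+ and 4.47 ± 4.99 in GFP- cells. In GFP+ replicate 1 of E14, however, Fabp7 at 23.6 FPKM was above Elovl4 (21.1), Elovl6 (15.0) and Elovl2 (14.7). Elovl2 was lowest in GFP+ cells at E18, at 9.09 ± 0.143 FPKM, and Elovl6 in GFP- cells at E18 (22.4 ± 0.336) and in both sorts at P2 (7.51 ± 2.69 for GFP+ cells, 10.5 ± 2.18 for GFP- cells).

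The make-up of the elongases differed between the sorts at the later ages. Elovl5 gave 44.3% to 60.9% of the summed FPKM of the 4 elongases in the 6 GFP+ libraries, and 9.91% to 40.1% in the 6 GFP- libraries. Elovl2 gave 7.53% to 17.3% in GFP+ and 15.0% to 35.6% in GFP- libraries, which overlapped only through E14. The sum itself was 102 to 120 FPKM in GFP+ cells and 87.3 to 245 FPKM in GFP- cells. The Elovl2 level was 0.132 and 0.124 of the Elovl5 level in GFP+ cells at E18 against 0.98 and 0.944 in GFP- cells, and 0.3 and 0.193 against 1.81 and 3.59 at P2. In GFP- cells at P2, Elovl4 was 2.4 and 5.13 times Elovl5, and over the 6 GFP+ libraries it was 0.327 to 0.636 times. At E14 the Elovl2 to Elovl5 ratio overlapped between sorts, at 0.262 and 0.391 (GFP+) against 0.756 and 0.375 (GFP-).

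**Figure D2:**
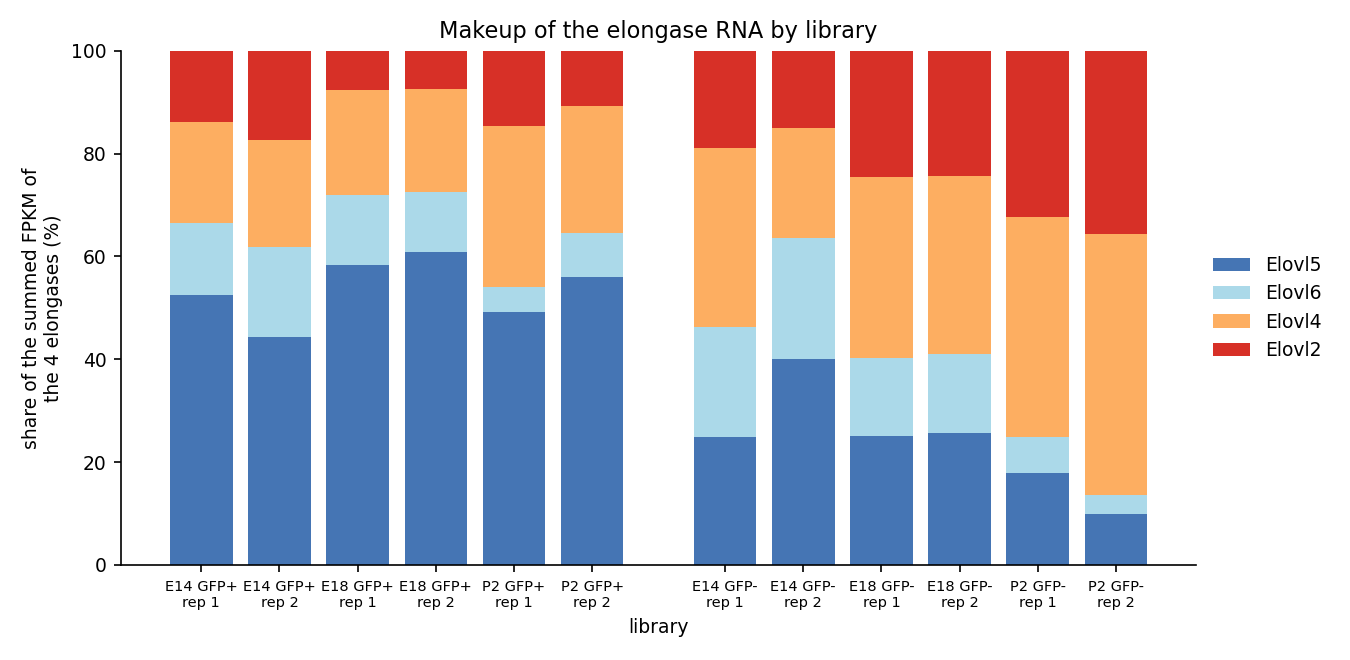
Share of each of the 4 elongases in their summed FPKM (percent) in every RNA library, stacked to the whole. Elovl5 gives 44.3% to 60.9% in the GFP+ libraries and 9.91% to 40.1% in the GFP- libraries.

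Between sorts, differences are GFP+ minus GFP- on the log2(FPKM + 1) scale with standard errors from limma, a linear model fitted to all 14276 genes, and called means a Benjamini-Hochberg adjusted p under 0.05. At E14, 0 members were called in either direction, beside 0% of all genes higher and 0% lower by limma, with 2246 genes at an unadjusted p under 0.05. Values there ran from -0.56 ± 0.27 for Elovl6 to 0.68 ± 1.12 for Fabp7. At E18, Elovl2 was lower at -1.86 ± 0.34 (0.256 times the GFP- mean FPKM) and Elovl5 higher at 0.93 ± 0.15 (1.93 times), and these were the 2 members called, beside 1.13% of all genes called higher and 2.49% lower. The other values were -1.04 ± 0.41 for Elovl4, -0.76 ± 0.43 for Fabp5, -0.55 ± 0.27 for Elovl6, 0.54 ± 0.23 for Fads2, -0.35 ± 1.12 for Fabp7 and 0.13 ± 0.22 for Fads1. At P2 the same 2 genes were called, Elovl2 at -2.19 ± 0.34 (0.205 times) and Elovl5 at 1.10 ± 0.15 (2.18 times), beside 0.112% of all genes higher and 1.37% lower. Elovl4 was at -1.57 ± 0.41 (0.322 times), Fabp5 at -0.54 ± 0.43, Elovl6 at -0.46 ± 0.27, Fads2 at 0.45 ± 0.23, Fads1 at 0.21 ± 0.22 and Fabp7 at -0.14 ± 1.12. Because the members were chosen with these contrasts known, nothing is read from the counts.

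Those calls rested on particular libraries, and with the replicate number as a block Elovl2 missed the threshold at E18 (limma, adjusted p = 0.0536). Without both GFP- libraries of E14, 5 members were called at E18, Elovl5 and Fads2 higher and Elovl2, Elovl4 and Fabp5 lower, beside 20.5% of all genes higher and 22.1% lower. At P2, 4 were then called, Elovl5 higher and Elovl2, Elovl4 and Fabp5 lower, beside 10.3% and 13.6%. Over all alternatives other than leaving out 1 library, 1 to 7 members were called at E18, beside 143 of 14276 to 7950 of 13403 genes. The highest count of genes came with only the 4 libraries compared. At P2 2 to 4 members were called over these alternatives, beside 129 of 14276 to 3348 of 14003 genes. Without any one E18 library or GFP+ P2 library, no member was called at E18, and without a GFP+ P2 library or GFP- replicate 2 of P2 none was called at P2, where Elovl2 also missed the threshold without any one E18 library. Without GFP- replicate 2 of E14, the library with lens RNA, 5 members were called at E14: Elovl5 higher and Elovl4, Elovl6, Fads1 and Fabp5 lower, beside 23.9% of all genes higher and 24.7% lower, with the lone GFP- library assumed to vary like the other groups. Without GFP- replicate 1 instead, 0 members were called, beside 2 genes higher and 126 lower of 14175 by limma. The E14 differences, none of them called with all libraries, then turned sign to 0.17 for Elovl4, 0.47 for Fabp5, 0.28 for Elovl2 and 0.10 for Fads2. GFP- libraries at E18 and P2 also held more RNA of several neuron types. The 9 photoreceptor markers summed to 304 to 318 FPKM against 60.6 to 66.2 in GFP+ cells at E18. At P2 they summed to 824 to 1610 against 138 to 246. For 7 amacrine markers the sums were 309 to 344 FPKM against 28.2 to 29.2 at E18, and 351 to 542 against 43.2 to 51.9 at P2. In replicate 1 of E18, 7 ganglion cell markers summed to 451 FPKM in GFP- and 24.4 in GFP+ cells. GFP- cells were higher in replicate 2 as well. At P2 the ganglion cell sums were 18.6 to 46.7 FPKM against 7.87 to 9.81, and 1 of the 7 markers was higher in GFP+ cells there. The summed level of 10 Mueller glia markers was 1140 to 1370 FPKM in GFP+ and 502 to 692 in GFP- cells at these ages. In GFP+ cells at E14 it was 574 to 840 FPKM. Of the 8 Mueller glia markers tested, 2 had negative differences between sorts at E18 and 1 at P2. The part of all these cell types in the members' values was not tested.

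**Figure D3:**
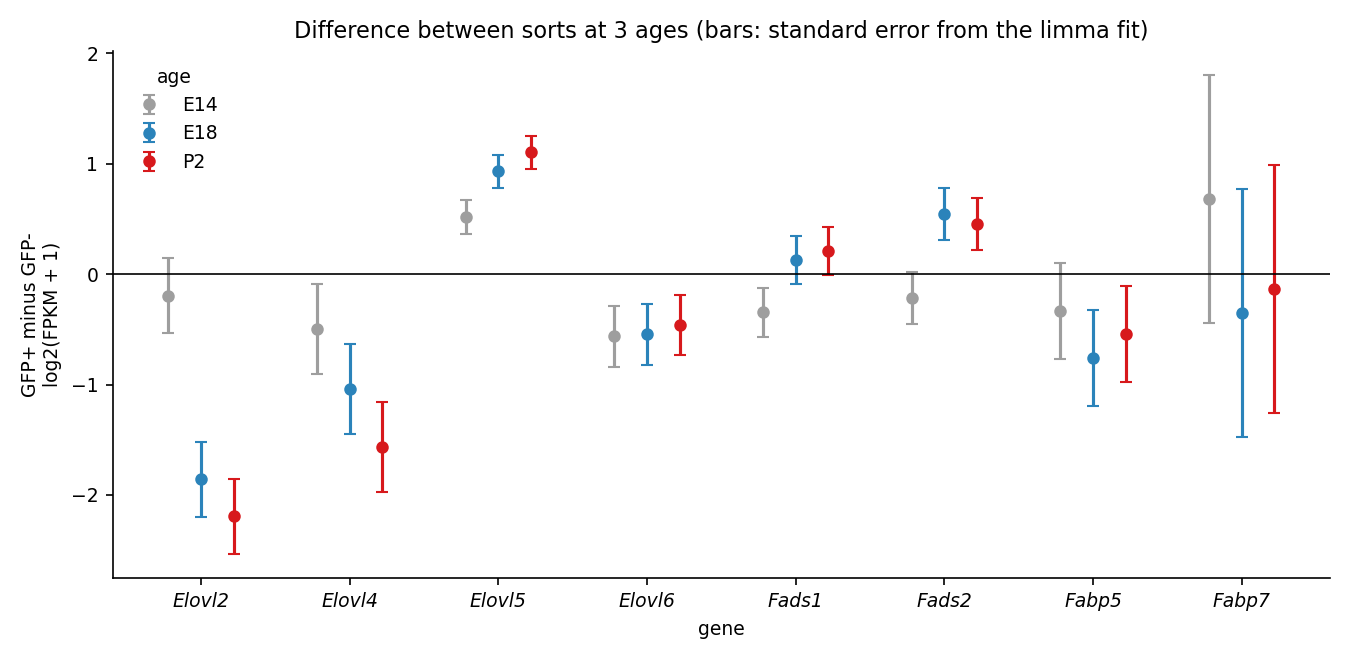
Difference of each gene between GFP+ and GFP- cells, on the log2(FPKM + 1) scale with standard errors from limma, at E14, E18 and P2 (2 libraries per group). Elovl2 and Elovl4 lie below 0 and Elovl5 above 0 at E18 and P2.

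Across ages, Fabp7 showed the largest of the members' differences. In GFP+ cells the P2 minus E14 value of Fabp7 was 5.52 ± 1.12 (26.6 times in mean FPKM), but it was 3.64 without E14 GFP+ replicate 2 and 7.39 without replicate 1. Elovl6 was at -1.07 ± 0.27 (0.456 times) and Fabp5 at -0.75 ± 0.43, and 0 members were called beside 0.932% of all genes called higher and 0.217% lower by limma, with 1998 genes at an unadjusted p under 0.05. Without both GFP- libraries of E14, Fabp7 was called higher and Elovl6 and Fabp5 lower, beside 6.88% and 6.03% of all genes. From E18 to P2 in GFP+ cells, Fabp7 was at 2.23 ± 1.12 (5.06 times), Elovl6 at -0.95 ± 0.27 (0.498 times) and Elovl2 at 0.60 ± 0.34, with 0 members called beside 4.47% higher and 3.51% lower over 14276 genes, 3223 of them at an unadjusted p under 0.05 by limma. In GFP- cells over the same interval, Elovl6 was at -1.04 ± 0.27 (0.469 times) and was called, beside 5.9% of all genes higher and 5.21% lower. This call was lost with a pseudocount of 0.1 (limma, adjusted p = 0.0531), without the filter on low values (adjusted p = 0.0523) and with the replicate number as a block (adjusted p = 0.0645), and of 12 fits without a single library it held in 4, those without an E14 GFP- or a P2 GFP+ library. Fabp7 was then at 2.02 ± 1.12 (4.26 times), Elovl2 at 0.94 ± 0.34 (1.99 times), Elovl4 at 0.89 ± 0.41 (1.94 times) and Elovl5 at -0.44 ± 0.15. Without the E14 GFP- libraries, Elovl6 was called lower in GFP+ cells (12.9% of all genes higher, 12.5% lower). In GFP- cells, Elovl2 and Elovl4 were then called higher and Elovl5 and Elovl6 lower (15.7% and 17% of all genes). Over all alternatives other than leaving out 1 library, 0 to 3 members were called from E18 to P2 in GFP+ cells. This stands beside 1081 of 14276 to 5425 of 12648 genes. In GFP- cells 0 to 4 members were called, beside 1401 of 14276 to 4588 of 14003 genes.

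Over the 12 RNA libraries, which share groups, the log2 levels of Elovl2 and Elovl4 had a Pearson r of 0.931, and Elovl2 and Elovl5 of -0.887. Fads1 and Fads2, whose starts lie 81.4 kb apart on opposite strands of chromosome 19, had an r of 0.761, and Elovl6 and Fabp7 of -0.677. Among 9777 genes with a mean of at least 5 FPKM, those most like Elovl2 were Lgalsl (r = 0.973), Bin1 (0.969) and C2cd2l (0.967), and those most like Elovl4 were Peli3 (0.983), Bbs2 (0.977) and Sez6 (0.976). Elovl5 was most like Cep83 (0.968), Eif1ax (0.952) and Tmem43 (0.949), and Elovl6 most like Xbp1 (0.958), Spsb4 (0.957) and Spg21 (0.953). For Fads1 these were Dtnbp1 (0.956), Cdr2 (0.937) and Tpm3 (0.931), and for Fads2 Rassf2 (0.917), Ddah2 (0.903) and Rtca (0.897). Fabp5 was most like Pak1 (0.962), Tstd3 (0.955) and Ube2g1 (0.954), and Fabp7 most like Neurod4 (0.998), a proneural transcription factor, Ankrd33b (0.986) and Ncoa1 (0.98). These are descriptions over 12 libraries of 6 groups, with no test.

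Other genes of the pathway were taken from lists drawn up with earlier results of these data known. None of the 11 tested genes of the elongation and desaturation list was called by limma in any of the 6 RNA comparisons. Scd2, a stearoyl-CoA desaturase, measured 351 and 348 FPKM in GFP+ against 245 and 218 in GFP- cells at P2 (log2 0.59 ± 0.15, limma, adjusted p = 0.115), and Elovl1 11.8 and 13.2 against 7.85 and 8.25 (0.57 ± 0.17, adjusted p = 0.163). Hacd3, a 3-hydroxyacyl-CoA dehydratase of the elongation cycle, measured 36.8 and 39.4 FPKM in GFP+ against 68.2 and 71.5 in GFP- cells at E18 (-0.86 ± 0.23, limma, adjusted p = 0.0725). Without both GFP- libraries of E14, Elovl1 and Scd2 were called higher and Hacd3 and Tecr lower in the sort contrasts of both E18 and P2. These are 18.2% of the list in each direction. Of all genes, 20.5% were then called higher and 22.1% lower at E18, and 10.3% and 13.6% at P2. At E18, of 18 tested genes for uptake, binding and activation, 3 were called lower in GFP+ cells and 0 higher, beside 2.49% and 1.13% of all genes. Fabp3 was at 0.266 and 0.755 against 10.7 and 10.8 FPKM (limma, adjusted p = 0.0345), Fabp12, known from the retina and testis, at 0 and 0.0926 against 3.2 and 2.92 (adjusted p = 0.0291), and the retinoic acid binding protein gene Crabp1 at 9.19 and 12 against 110 and 125 (adjusted p = 0.0364). At P2 Fabp12 (-2.94 ± 0.34, limma, adjusted p = 0.00648) and Crabp1 (-5.12 ± 0.64, adjusted p = 0.00943) were again lower. When each of the 12 libraries was left out in turn, Fabp12 at P2 was called in 11 fits (not without GFP+ replicate 2 of P2, adjusted p = 0.102), Crabp1 at P2 in 8 (not without any P2 library), Fabp12 at E18 in 6, and Fabp3 and Crabp1 at E18 in 4 each (not without any E18 or P2 library), all with the same sign. Acsl3, an acyl-CoA synthetase gene, was at 215 and 214 FPKM in GFP+ against 109 and 89.6 in GFP- cells at E18, and Dbi, the acyl-CoA binding protein gene, at 205 and 220 against 86.2 and 84.1, and neither was called. Without both GFP- libraries of E14, 7 of the 18 genes were called lower and 3 higher (Acsl3, Dbi and Slc27a6) at E18, and 5 lower and the same 3 higher at P2, beside the shares of all genes given above for that fit.

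With age in GFP+ cells, a few genes of transport and activation rose and a few of sterol synthesis fell. From E14 to P2 the fatty acid transporter gene Slc27a1 rose by 2.41 ± 0.29 on the log2 scale (limma, adjusted p = 0.00978), Acsl3 by 1.74 ± 0.27 (adjusted p = 0.0281) and Dbi by 2.40 ± 0.40 (adjusted p = 0.0336), 3 of 18 genes of their list with 0 lower, beside 0.932% and 0.217% of all genes. Without both GFP- libraries of E14, 5 of the 18 were called higher and 3 lower, beside 6.88% and 6.03%. From E18 to P2 Slc27a1 rose by 1.63 ± 0.29 (limma, adjusted p = 0.0117), the lipid-sensing receptor gene Ppard by 2.29 ± 0.38 (adjusted p = 0.00933) and Oxsm, of mitochondrial fatty acid synthesis, by 1.0 ± 0.24 (adjusted p = 0.0408). Ppard and Oxsm were lower at E18 than at E14 in GFP+ cells. Ppard measured 7.55 and 8.11 FPKM at E14, 2.11 and 1.77 at E18 and 13.1 and 13.7 at P2. Oxsm measured 3.92 and 4.17 FPKM at E14, 2.05 and 2.15 at E18 and 5.2 and 5.15 at P2. From E18 to P2 in GFP+ cells 3 of 22 sterol genes fell, beside 3.51% of all genes, among them Cyp51 at -1.88 ± 0.47 (limma, adjusted p = 0.0481) and Msmo1 at -1.94 ± 0.46 (adjusted p = 0.038). The median of the sterol list was -0.71, with 20 of 22 values negative, beside a median of -0.04 over all genes, and it was -0.88 in GFP- cells (all genes -0.01), where Cyp51 fell too (limma, adjusted p = 0.0428). In GFP- cells Ppard (2.44 ± 0.38), Dbi (1.70 ± 0.40), Slc27a1 (1.49 ± 0.29) and Fabp12 (1.43 ± 0.34) rose. Without both GFP- libraries of E14, 11 of 21 sterol genes were called lower in GFP+ cells from E18 to P2, beside 12.5% of all genes. In GFP- cells 12 of 21 were then called lower, beside 17% of all genes, and Dhcr7 was called higher. With each of the 12 libraries left out in turn, the sign of every call held, but each was lost in some fit. Slc27a1 from E14 to P2 was called in 10 fits (not without either GFP+ library of P2) and Ppard in 8 in GFP+ cells and 10 in GFP- cells, where it needed GFP- replicate 1 of E18 and replicate 2 of P2. Slc27a1 from E18 to P2 was called in 8 and 9 fits. The remaining calls held in 2 to 6 fits, and Cyp51 in 2 in each sort, those without an E14 GFP- library. Both comparisons between ages in GFP+ cells use the same P2 libraries and are not independent of each other.

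Accessibility was compared between P0 and E12.5 in GFP+ cells. Counts, scaled to library size as CPM, were tested by edgeR's quasi-likelihood test over the exons of each gene, over a run of 10 kb centred on each transcript start and in 200 bp windows of that run. For ATAC-seq differences, the value after ± is the size of the log2 difference over the square root of the test's F. It is an approximate standard error that edgeR itself does not report. The deposited coordinates are those of mm9, in which Elovl2 lies at chr13:41277751-41315772 and Elovl4 at chr9:83672299-83699912, both on the minus strand. Elovl5 lies at chr9:77765172-77832326 and Elovl6 at chr3:129235304-129341411, both on the plus strand, Fads1 at chr19:10257378-10271362 (plus) and Fads2 at chr19:10138654-10175993 (minus). The binding protein genes are short, Fabp5 at chr3:10012606-10016610 and Fabp7 at chr10:57504729-57508256, both on the plus strand. Library totals over the runs were 11176227 to 94662422 counts, the lowest in replicate 2 of P0. The members' accessibility was part of what they were chosen from, so the p-values below describe the fit and support no statement on the set.

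In the 10 kb runs, Elovl2 and Fads2 were higher and Fabp7 lower at P0. The run of Elovl2 around its NM_019423 start held 23.2 and 23.1 CPM at E12.5, 35.3 and 34.4 at E14, 32.8 and 28.3 at E16.5, 37.1 and 35.3 at E18, 38.4 and 39.5 at P0 and 30.1 and 26.1 at P2. Both P0 libraries were above both E12.5 libraries, at a log2 difference of 0.75 ± 0.13 (edgeR, adjusted p = 1.33e-06), and a second, overlapping Elovl2 run gave 0.69 ± 0.13 (adjusted p = 6.06e-06). Fads2 rose from 86.3 and 76.5 CPM at E12.5 to 128 and 124 at P0, by 0.63 ± 0.18 (edgeR, adjusted p = 0.00179). Elovl5 held 59.3 and 57.6 CPM at E12.5 and 73.5 and 78.5 at P0, at 0.38 ± 0.15 (edgeR, adjusted p = 0.0293). Fabp7 held 22.3 and 25.7 CPM at E12.5, 12.3 and 9.67 at E14, 14.4 and 15.4 at E16.5, 12.4 and 13.7 at E18, 13.5 and 16.4 at P0 and 17.3 and 22.7 at P2. It fell by 0.70 ± 0.18 from E12.5 to P0 (edgeR, adjusted p = 6.65e-04), and the E12.5 libraries overlapped P2 replicate 2 and no library of a stage between. In P2 replicate 2 the mean count of the central windows was 12.2 times that of the outermost, against 22.7 times in P2 replicate 1 and 18.5 to 28.6 in the E12.5 to P0 libraries, and the part of this in its values was not tested. The 4 higher runs and the 1 lower run called, of 9 runs of the 8 genes, stand beside 29.9% of all runs called higher and 32% lower.

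The remaining runs missed the threshold. Elovl6 held 113 and 106 CPM at E12.5 and 134 and 147 at P0 (0.36 ± 0.18, edgeR, adjusted p = 0.0814), Fabp5 84.3 and 79.7 against 97.5 and 106 (0.31 ± 0.16, adjusted p = 0.0924) and Fads1 55.4 and 53.6 against 64.5 and 63.8 (0.24 ± 0.16, adjusted p = 0.179). Elovl4 held 77.0 and 76.0 CPM at E12.5 and 68.6 and 69.2 at P0 (-0.15 ± 0.15, edgeR, adjusted p = 0.385). The single E10 library gave 45.4 CPM for the Elovl2 run, above every later library, and 34.1 to 55.9 CPM for the runs of the other genes except Fabp7 at 15.9. That library had a weak start signal, with a mean count in the central windows 6.40 times that of the outermost windows, against 18.5 and 19.9 at E12.5 and 27.8 and 28.6 at P0. The start signal was thus stronger at P0 than at E12.5, and its part in the higher and lower values of the runs at P0 was not tested. Without TMM scaling the median of all runs shifted from 0.01 to -0.21, and the Elovl5 run was no longer called (adjusted p = 0.156). Elovl5 also missed the threshold without any one E12.5 or P0 library (edgeR, adjusted p = 0.0733 to 0.151), and Fads2 without replicate 2 of E12.5 (adjusted p = 0.0568), while Elovl2 and Fabp7 were called under every alternative run.

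**Figure D4:**
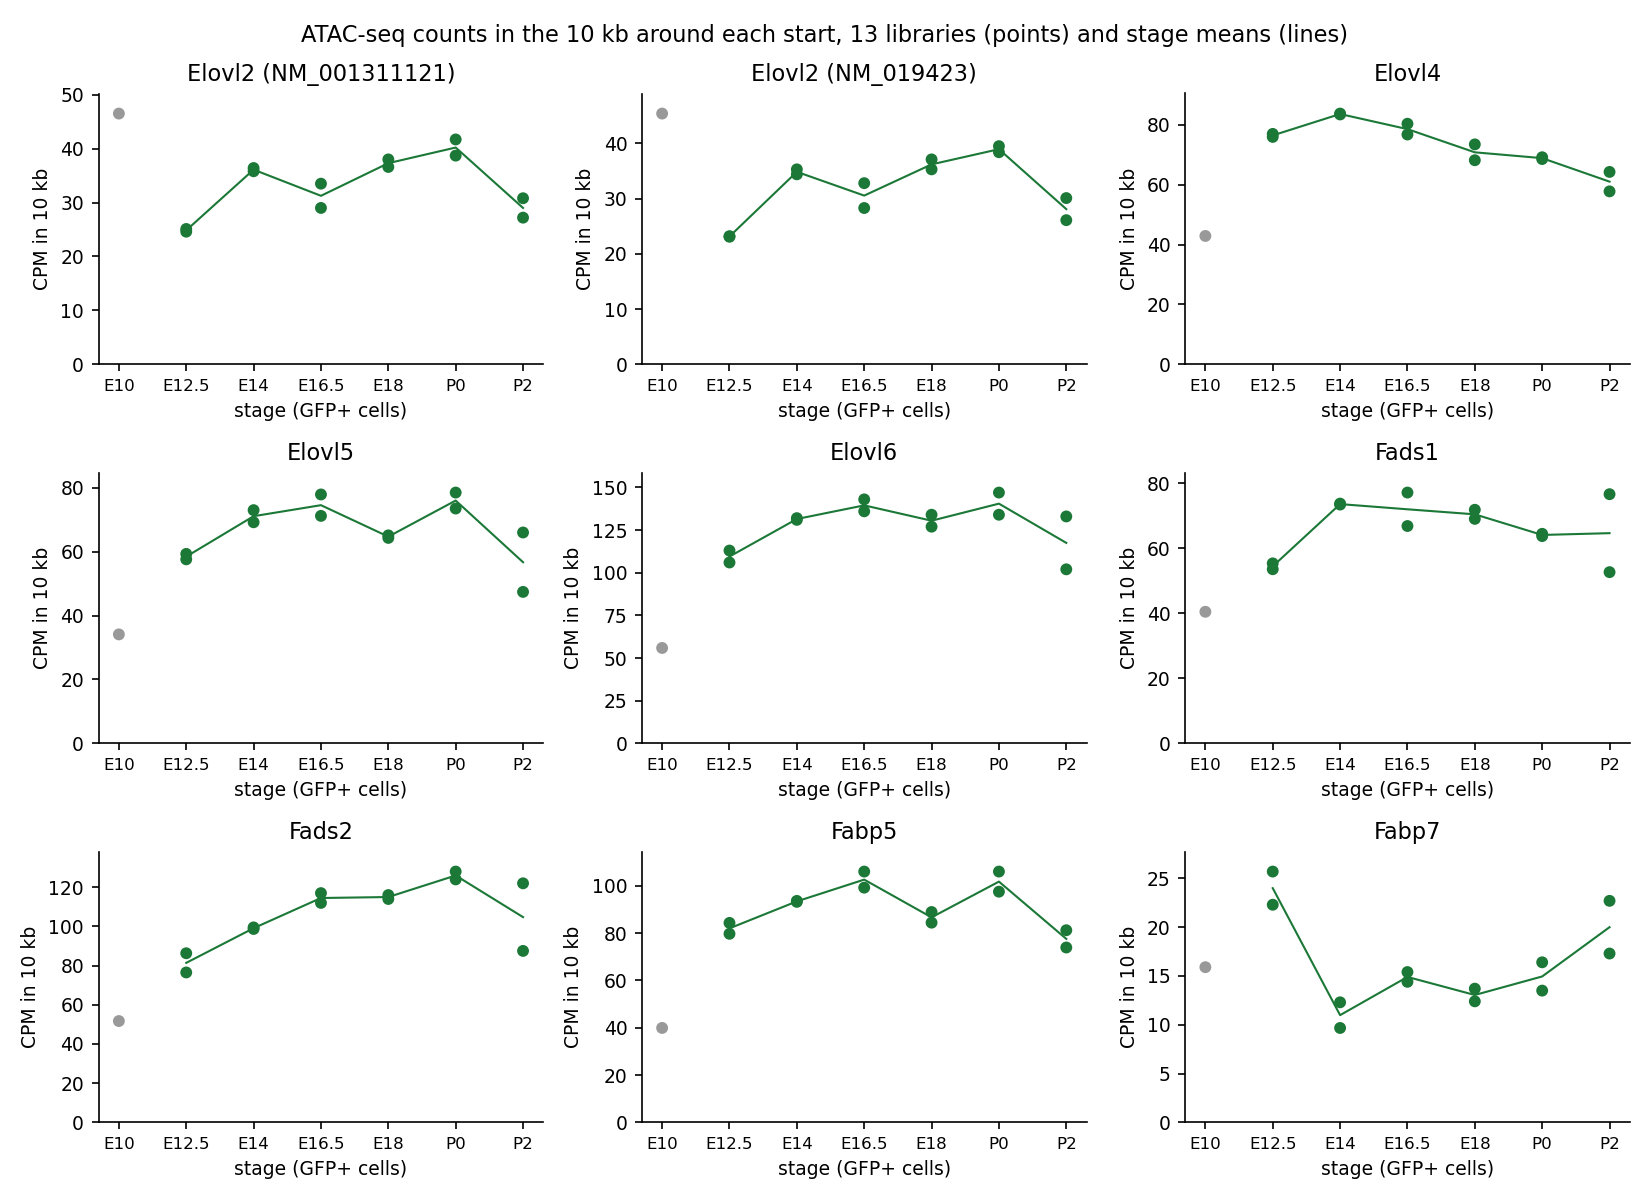
ATAC-seq level of the 10 kb run around the start of each gene in CPM, 1 point per GFP+ library by stage, with 1 library at E10 and 2 at each later stage. Fabp7 is at 22.3 and 25.7 CPM at E12.5 and 9.67 to 16.4 CPM from E14 to P0, and Elovl2 is higher at P0 than at E12.5.

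Over exons, Elovl2 was again higher at P0, at 44.1 and 42.4 CPM against 25.1 and 28.2 at E12.5 (0.71 ± 0.19, edgeR, adjusted p = 0.00629). The call was lost without replicate 1 of P0 (adjusted p = 0.0877). Elovl6 was lower, at 42.2 and 56.1 CPM against 69.0 and 61.8 (-0.45 ± 0.17, edgeR, adjusted p = 0.0336), and its call was lost without either E12.5 library (adjusted p = 0.177 and 0.0692) or replicate 1 of P0 (0.458). Fabp7 exons held 14.8 and 17.2 CPM at E12.5 and 11.4 and 7.91 at P0 (-0.68 ± 0.34, edgeR, adjusted p = 0.107). The other five ran from 0.06 ± 0.16 for Elovl4 to 0.37 ± 0.16 for Elovl5 and were not called, and the signs of Elovl4 and Fads2 turned without TMM scaling (-0.12 and -0.02). One member called higher and 1 lower stand beside 23% and 19% of all genes. Of the 12 tested genes of the elongation list outside the members, 2 were called higher and 1 lower over exons, and of 23 fatty acid oxidation genes 7 higher and 0 lower. Of 15 fatty acid synthesis genes 1 was called higher and 3 lower, and of 25 genes for uptake, binding and activation 2 and 4. Of 12 lipid nuclear receptor genes 4 were called higher and 3 lower, and of 20 sterol genes 4 and 1. The same 23% and 19% of all genes stand beside these counts.

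In 200 bp windows the Fabp7 decrease lay away from its start. Its window just upstream of the start, the highest of the run, held 3.09 and 4.11 CPM at E12.5 and 4.19 and 5.45 at P0 (0.41 ± 0.35, not called). Of 42 tested windows of the run, 7 were called lower at P0 and 0 higher. The window centred 1300 bases upstream (chr10:57503329-57503528) held 39 and 34 counts at E12.5 and 6 and 2 at P0, at -2.01 ± 0.52 (edgeR, adjusted p = 0.00759). The one centred 900 bases upstream (chr10:57503729-57503928) held 1.35 and 1.52 CPM at E12.5 (49 and 45 counts) and 0.537 and 0.382 CPM at P0 (10 and 4 counts), at -1.57 ± 0.43 (edgeR, adjusted p = 0.0144). The others were centred 3100, 1500 and 1100 bases upstream and 900 and 1100 bases downstream, and held 13 to 47 counts in each E12.5 library and 0 to 9 in each P0 library. Counts are not scaled to depth, and both P0 libraries were shallower than either E12.5 library. The median of all windows was itself at -0.41, and 1.64% of all windows were called higher and 1.96% lower. The called windows numbered 13 over all members with all libraries, but 1 to 4 without any one E12.5 or P0 library (1 without replicate 1 of P0), 40 without TMM scaling, 55 without E10 and replicate 1 of P2 and 66 without E10 and both P2 libraries. Start signal over flanks also differed between these stages, as given above, and its part in the distal decrease was not tested.

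The other members' called windows were fewer. Elovl2 had 3 windows called higher around NM_019423, centred 300 bases upstream and 300 and 3900 bases downstream, the latter pair in its intron 1. The window 300 bases upstream (chr13:41315972-41316171) held 2.43 and 2.09 CPM at E12.5 and 5.91 and 3.92 at P0, at 1.14 ± 0.36 (edgeR, adjusted p = 0.0417). In the overlapping run of the other Elovl2 start, NM_001311121, window borders fall at other bases, and 0 of 43 tested windows were called. The highest window of that run was at 0.97 ± 0.38 (edgeR, adjusted p = 0.134). Elovl6 was the one member whose highest window lay away from its start, 4100 bases downstream in intron 2 (chr3:129239304-129239503), at a mean of 18.7 CPM over 12 libraries. Only 12.2% of its run's CPM lay within 200 bases of the start, against 24.8% to 51.4% for the other genes. Next to that window, the one centred 4500 bases downstream in the same intron (chr3:129239704-129239903) held 4.72 and 4.38 CPM at E12.5 (171 and 130 counts) and 1.88 and 2.29 CPM at P0 (35 and 24 counts). It was the 1 Elovl6 window called, lower at -1.14 ± 0.36 (edgeR, adjusted p = 0.0454). Fabp5 had 1 window called higher, over its exon 2 (1.66 ± 0.47, edgeR, adjusted p = 0.0192), and Elovl4 had 1 called lower, 1700 bases upstream (-2.38 ± 0.75, adjusted p = 0.044). Elovl5, Fads1 and Fads2 had 0 called windows at this depth.

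**Figure D5:**
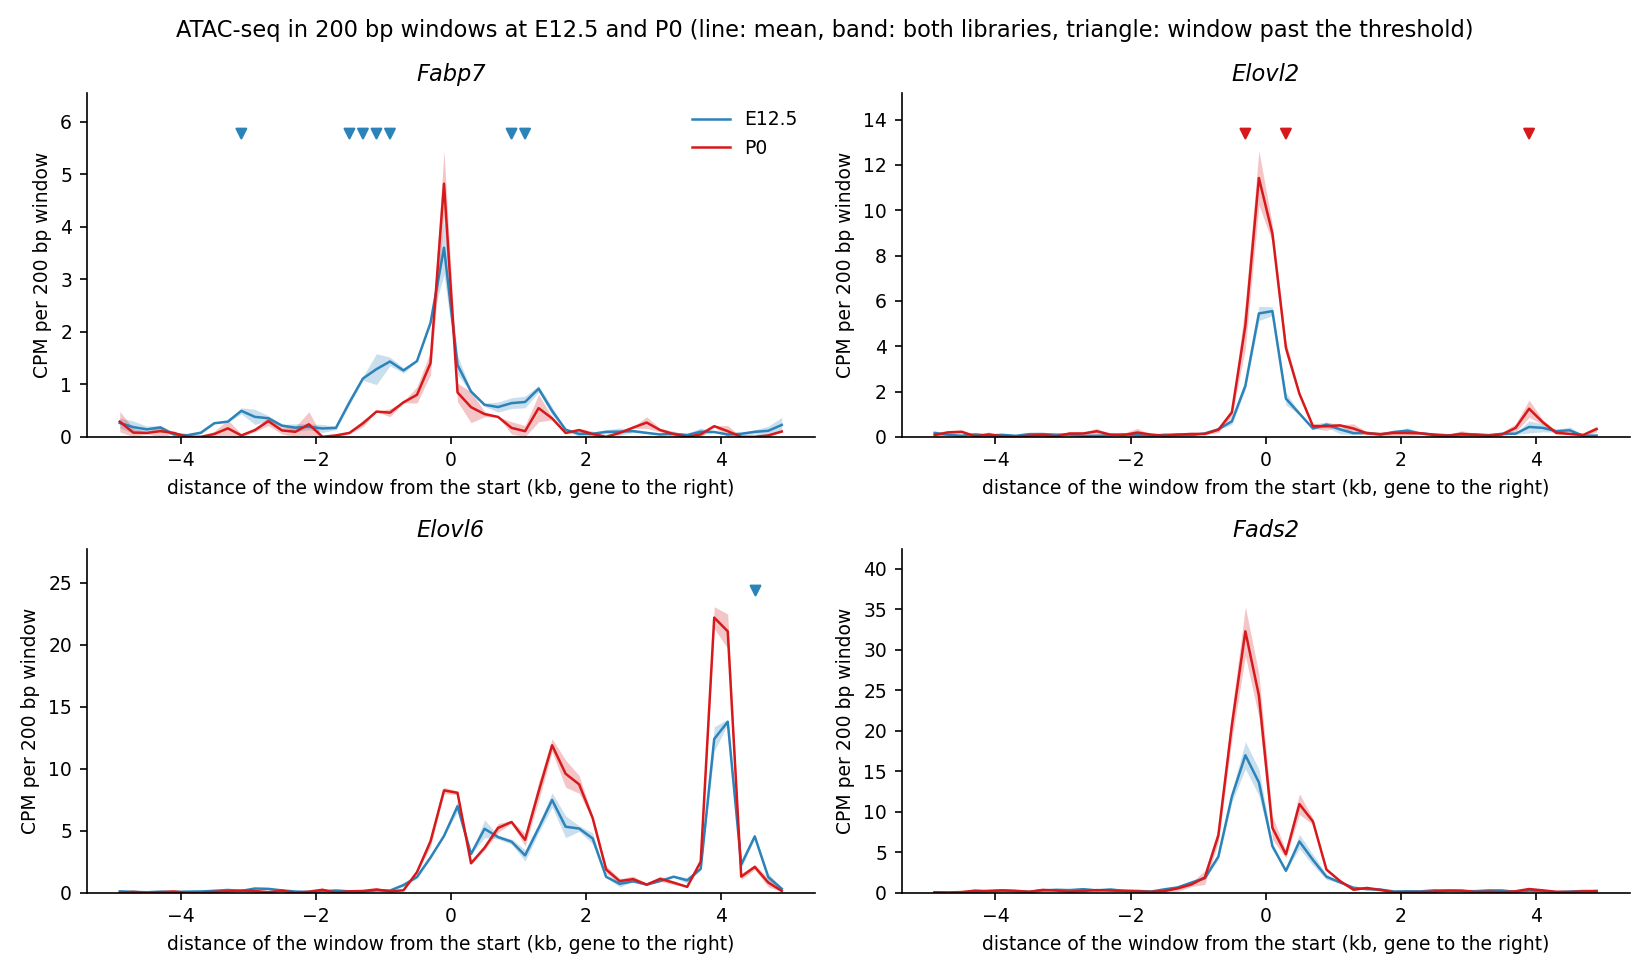
ATAC-seq CPM in 200 bp windows by distance from the transcript start, for E12.5 and P0 libraries of GFP+ cells around Fabp7, Elovl2, Elovl6 and Fads2, with triangles over called windows (blue lower, red higher at P0). For Fabp7 the start window is 3.09 to 5.45 CPM in all 4 libraries, while windows 900 to 1500 bases upstream are lower at P0.

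Promoter sequences are shown for the gene whose flanking windows were lower at P0 while its start window was not called (Fabp7) and for the elongases with opposite sort differences (Elovl2 and Elovl5). They are from RefSeq on GRCm38.p6, a later build than that of the counts, and cover 250 bases before to 50 after the annotated start. The table held promoters for 6 of the 8 members, 7 promoters in all with a pair for Elovl2. Each is written 5′ to 3′ along the gene's strand, and capitals mark matches to the motifs searched on both strands: CCAAT (bound by NF-Y), TCACNCCAC (a sterol regulatory element), GGGCGG (GC box), CACGTG (E-box), GTGGGAA (RBPJ), ATGCAAAT (octamer) and AGGTCA (nuclear receptor half-site).
Fabp7, chr10:57784673-57784972, plus strand: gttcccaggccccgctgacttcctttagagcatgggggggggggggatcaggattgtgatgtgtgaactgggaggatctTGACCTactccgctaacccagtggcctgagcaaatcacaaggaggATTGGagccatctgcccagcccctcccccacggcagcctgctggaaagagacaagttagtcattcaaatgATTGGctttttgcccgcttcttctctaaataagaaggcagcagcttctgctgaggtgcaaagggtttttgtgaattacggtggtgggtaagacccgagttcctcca
Elovl2, chr13:41220354-41220653, minus strand: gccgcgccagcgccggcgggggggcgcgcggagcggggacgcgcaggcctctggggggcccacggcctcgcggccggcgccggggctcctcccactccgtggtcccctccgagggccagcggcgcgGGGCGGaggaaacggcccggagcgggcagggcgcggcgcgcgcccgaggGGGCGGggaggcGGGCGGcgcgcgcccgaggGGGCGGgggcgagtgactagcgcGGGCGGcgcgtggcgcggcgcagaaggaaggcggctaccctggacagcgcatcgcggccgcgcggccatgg
Elovl5, chr9:77917115-77917414, plus strand: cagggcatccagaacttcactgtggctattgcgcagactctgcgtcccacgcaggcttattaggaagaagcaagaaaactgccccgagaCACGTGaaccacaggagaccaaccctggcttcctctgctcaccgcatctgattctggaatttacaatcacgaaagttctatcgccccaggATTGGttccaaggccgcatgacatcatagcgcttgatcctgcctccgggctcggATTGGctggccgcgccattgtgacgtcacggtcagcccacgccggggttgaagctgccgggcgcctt

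The Fabp7 promoter held CCAAT on its minus strand at 126 and 56 bases before the start and an AGGTCA match at 171 bases before it. The Elovl5 promoter also held CCAAT, at 71 and 17 bases before its start, and a CACGTG match at 161 bases before it. Neither motif was seen in the Elovl2 promoter shown, which held 5 GC boxes between 124 and 21 bases before the start and was 84.7% G or C, against a median of 52.7% over 32851 promoters and 54.0% and 57.7% for Fabp7 and Elovl5. The other Elovl2 promoter, at chr13:41220113-41220412, held 0 GC boxes and was 76.7% G or C. Over all members, CCAAT was in 3 of 7 promoters (Elovl4, Elovl5 and Fabp7) against 37.4% of all promoters, and the GC box in 3 (Elovl2, Elovl4 and Fads2) against 35.7%. CACGTG was in 2 (Elovl4 and Elovl5) against 7.15%, AGGTCA in 2 (Elovl6 and Fabp7) against 16.3%, and GTGGGAA in 1 (Elovl4) against 6.38%. TCACNCCAC and ATGCAAAT, in 1.24% and 1.74% of all promoters, were in none of the 7. A match describes letters in these windows and not binding.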

How the data were processed

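RNA-seq (12 libraries) and ATAC-seq (13 libraries) were taken as deposited. The authors deposited RNA values as FPKM, a unit inferred from values that are not whole and sum to 383872 to 504845 per library, and ATAC-seq as counts per gene over exons and per 200 bp window, without normalization. Per the submitters' processing notes, Bowtie2, HISAT2, Picard 2.10.7, SAMtools 1.5, featureCounts 1.5.3 and bedtools 2.26.0 were used with mm9 and mm10, in roles not given in the sources used here. The labels name polyA RNA, and a total RNA kit in the protocol. Groups follow the labels.

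RNA was fitted with limma 3.58.1 (intensity trend) on log2(FPKM + 1), which understates changes of low genes, over 6 groups, keeping a gene when 2 or more libraries reached 1 FPKM. ATAC-seq counts were fitted with edgeR 4.0.16 (TMM, quasi-likelihood, default filter on low counts) in 7 stages, with P0 against E12.5: 22097 genes, 27902 runs of 50 windows and 1112103 windows. Exon totals were 1474790 to 15915391 counts. Scripts were tested on simulated data. Alternatives were other pseudocounts, filters, scalings, tools and left-out libraries. All 8 members are named, with up to 3 genes per pathway list (smallest p between sorts at E18 and P2), every called list gene that is mentioned, and the 3 genes most correlated with each member. A called gene of the sterol list is not reported here. The members and lists were chosen with earlier results of these data known.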

Additional observations from a re-analysis of the deposited data

Results flagged for a closer look

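Fads1, the delta-5 desaturase gene, had opposite differences between sorts at E14 and E18. GFP+ minus GFP- was -0.35 on the log2(FPKM + 1) scale at E14, where both GFP- libraries (101 and 65.3 FPKM) lay above both GFP+ libraries (62.9 and 64.8). At E18 it was 0.13, with both GFP+ libraries (66.9 and 67.2 FPKM) above both GFP- libraries (59.6 and 63.3). The difference between the ages was not tested, neither value was called by limma, and the E14 gap between the closest libraries was 64.8 against 65.3 FPKM.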

How the results depend on the processing

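The differences of members called in RNA or over exons kept their sign under every alternative run, while counts of called genes moved widely. Between sorts at E14, 0 genes became 9 without the filter and 0 to 6844 without single libraries. At E18, 516 genes became 143 with a pseudocount of 0.1, 970 without the filter, 944 with quantile scaling (480 higher and 464 lower, against 161 and 355), 7950 with only the 4 libraries compared, 5962 without both E14 GFP- libraries and 9 to 6011 without single libraries. At P2, 212 became 3229, 3348 and 29 to 3370 in the last 3 ways. From E14 to P2 in GFP+ cells, 164 became 0, 1808 and 15 to 1813. From E18 to P2, 1139 became 5425, 3557 and 351 to 3570 in GFP+ cells, and 1586 became 4565, 4588 and 412 to 4619 in GFP- cells. Of single libraries, those of E14 GFP- gave the highest RNA counts when left out. For ATAC-seq, 9273 genes called over exons became 3286 to 7285, 17277 runs 10930 to 14480 and 40078 windows 9182 to 21738 without single E12.5 or P0 libraries. Windows also became 79364 without TMM, 75204 with a mean of at least 10 counts and 110504 without E10 and P2 replicate 1, under which exons gave 12911 and runs 21618, and 116916 windows without E10 and both P2 libraries. Without TMM the calls higher and lower at P0 turned from 5073 and 4200 to 3593 and 5303 over exons, from 8343 and 8934 to 5734 and 10752 over runs, and from 18292 and 21786 to 27949 and 51415 over windows, and the exon values of Elovl4 and Fads2, not called, turned to -0.122 and -0.0155. The cause was not tested, beyond what leaving out libraries shows. The labels tie no replicate number to a shared litter or day, and not every pair of groups deviated together, so the numbers were not taken as pairs: deviations correlated at -0.558 to 0.362 over 15 pairs of RNA groups, with 3 over 0.1 (the E14 sorts highest), and at -0.387 to 0.432 over 15 pairs of stages in ATAC-seq runs, with 4 over 0.1. The lowest RNA value, -0.558, was between the sorts of P2. There, over all genes, replicate 1 of one sort tended to deviate like replicate 2 of the other, which a block by replicate number does not model. With a replicate block, 269 genes were called between sorts at E18 (Elovl2 then missed the threshold, limma, adjusted p = 0.0536), 129 at P2, 92 from E14 to P2 in GFP+ cells, 9373 over exons, 17430 runs and 40324 windows. At P0 replicate 2, the shallowest library, most distal Fabp7 windows held under 10 counts, which limits single-window values.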

Other observations

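Other genes of lipid handling that differed between sorts or ages are given here as values. Rxrg, a retinoid X receptor gene known from cones, measured 1.11 and 0.848 FPKM in GFP+ against 14.9 and 15.9 in GFP- cells at E18 and 0.538 and 0.494 against 9.07 and 9.84 at P2, and was called at neither age (limma, adjusted p = 0.0775 and 0.166). Me1, malic enzyme, measured 0.6 and 0.533 against 3.85 and 2.67 FPKM at E18 and 0.899 and 0.939 against 5.5 and 9.35 at P2 (limma, adjusted p = 0.176 and 0.177). Srebf1, the regulator of fatty acid synthesis genes, was higher in GFP+ cells in every library at E18, at 72.2 and 85.4 against 32.9 and 47.5 FPKM, and at P2, at 86.5 and 82.6 against 47.9 and 70.7, without passing the test (limma, adjusted p = 0.121 and 0.472). Rxrg and Me1 were called lower at both ages, and Srebf1 higher at E18, without both GFP- libraries of E14.

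Of 23 fatty acid oxidation genes, 0 were called by limma in any RNA comparison. Acadl, the long chain acyl-CoA dehydrogenase gene, came closest, at 6.85 and 8.34 FPKM in GFP+ against 3.62 and 3.0 in GFP- cells at P2 (log2 0.99 ± 0.20, limma, adjusted p = 0.0556). It measured 14.5 and 15.3 FPKM in GFP+ cells at E14. Cpt1c, a neuronal carnitine palmitoyltransferase gene, was lower in GFP+ cells at E18, at 8.45 and 7.41 against 12.7 and 15.7 FPKM (limma, adjusted p = 0.0843), and Decr1 was higher, at 11.9 and 12.7 against 7.59 and 7.52 (adjusted p = 0.0774). In the fit without both GFP- libraries of E14, 6 of the 23 were called higher at E18, Acadl and Decr1 among them, and 3 lower, Cpt1c among them. These stand beside 20.5% of all genes called higher and 22.1% lower. At P2, 2 were then called higher, Acadl included, and 1 lower, beside 10.3% and 13.6% of all genes.

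Of the sterol genes, Stard4, a sterol transfer protein gene, measured 24.4 and 21.4 FPKM in GFP+ against 11.9 and 13.4 in GFP- cells at E18 (limma, adjusted p = 0.15), and Mvd 13.8 and 16 against 18.9 and 23.3 (adjusted p = 0.304). Rxra measured 21.4 and 25.6 FPKM in GFP+ against 9.97 and 12.7 in GFP- cells at E18 (limma, adjusted p = 0.194), and Ppargc1a 0.499 and 0.334 against 1.16 and 1.18 (adjusted p = 0.315). Rxra was called higher at E18 without both GFP- libraries of E14.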
